A study of Mus musculus with 8 samples.

Results

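Inhibitory coreceptors and exhaustion markers were described here through 9 genes, Pdcd1, Ctla4, Btla, Cd96, Tigit, Lag3, Havcr2, Cd160 and Cd200, which were found by gene name among the 52636 rows of the deposited expression table. All 9 were among the 12816 genes with enough signal to be tested. RNA was sequenced from splenic CD4+ Foxp3+ T cells (Tregs) and CD4+ Foxp3- conventional T cells (Tconvs), sorted by the GFP signal of a Foxp3 reporter, with 2 libraries in each of 4 groups. Control mice were CD27+/-, and CD70Tg mice were CD11c-Cd70tg;CD27+/-, so that both genotypes carried a single functional copy of Cd27, the gene of the CD70 receptor. In CD70Tg mice the CD11c promoter drives CD70 chiefly in dendritic cells, and the T cells meet the ligand continuously. Mice were 6 to 8 weeks old, and each library came from 200000 cells. Before the sort, antibodies and magnetic beads had been used to remove B cells, macrophages, dendritic cells, natural killer cells, granulocytes, CD8+ cells and Ter119+ erythroid cells, and CD3+ CD4+ cells were then gated. CD25+ cells were removed for Tconvs but not for Tregs.

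These receptors restrain T cell activation after antigen recognition. PD-1 (Pdcd1), BTLA and TIGIT carry tyrosine motifs that recruit phosphatases, CTLA-4 competes with CD28 for CD80 and CD86, TIGIT and CD96 compete with the activating receptor CD226 for nectin-like ligands, and LAG-3 binds MHC class II. Several of them accumulate together on T cells under chronic stimulation, a state termed exhaustion when function is lost, but each is also induced by ordinary activation, and CTLA-4 and TIGIT are constitutive in many Tregs. The comparisons asked which of these transcripts differed with constitutive CD70 in each subset, and whether the subsets differed in that response.

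Values are given as deposited, per 20 M reads, and those of a group in the order of the columns of the table. The number of reads behind each library, recovered from the spacing of its low values, was 6.94 to 33.3 M in Tconvs and 1.91 to 4.57 M in Tregs. The value of 3 reads, taken as the floor of detection, was 1.8 to 8.6 in Tconvs and 13.1 to 31.3 in Tregs, which covers counting error only. Foxp3 in the Tconv libraries was 5.21 to 7.51% of the Treg mean of the same genotype, and the summed CD4 T cell markers (Cd3e, Cd3d, Cd3g, Trac, Cd4) reached 66974 to 99765 in the 8 libraries. As no source states that the libraries of a group came from separate animals, the p-values measure the spread between these libraries, which may be technical. A call required that limma, fitted across all tested genes, gave an adjusted p-value below 0.05 together with a change of more than 1 on the log2 scale in either direction.

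The 300-base promoter windows of the members called between the genotypes within a subset, and with an entry in the RefSeq table (GRCm38.p6), are shown so that the genes that rose can be compared with Cd160, the member that fell. Capitals mark matches on either strand to the AP-1 (TGANTCA), NFAT (GGAAA) and T-box (GGTGTG) motifs, which belong to factors active in stimulated T cells. The windows are Havcr2 at chr11:46454681-46454980 (plus strand), Pdcd1 at chr1:94052504-94052803, Tigit at chr16:43664135-43664434 and the outermost start of Cd160 at chr3:96829302-96829601 (minus strand for all but Havcr2). Lag3, which was also called up, had no entry and is missing from this comparison.
Havcr2: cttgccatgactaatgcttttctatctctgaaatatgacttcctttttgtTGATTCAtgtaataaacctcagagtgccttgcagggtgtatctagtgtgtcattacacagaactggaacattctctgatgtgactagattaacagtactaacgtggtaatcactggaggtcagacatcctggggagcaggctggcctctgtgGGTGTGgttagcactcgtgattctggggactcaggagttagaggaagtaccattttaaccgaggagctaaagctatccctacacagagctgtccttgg
Pdcd1: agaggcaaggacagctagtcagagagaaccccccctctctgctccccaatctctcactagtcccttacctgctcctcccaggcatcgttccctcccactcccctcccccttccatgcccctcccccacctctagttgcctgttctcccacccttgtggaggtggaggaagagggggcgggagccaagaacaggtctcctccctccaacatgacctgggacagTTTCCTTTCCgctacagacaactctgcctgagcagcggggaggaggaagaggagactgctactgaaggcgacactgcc
Tigit: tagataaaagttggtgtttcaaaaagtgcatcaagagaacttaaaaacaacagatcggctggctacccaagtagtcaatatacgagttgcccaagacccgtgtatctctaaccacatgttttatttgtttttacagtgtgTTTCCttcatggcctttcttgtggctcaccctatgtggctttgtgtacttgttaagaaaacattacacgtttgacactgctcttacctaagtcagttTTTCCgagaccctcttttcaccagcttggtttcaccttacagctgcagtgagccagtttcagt
Cd160: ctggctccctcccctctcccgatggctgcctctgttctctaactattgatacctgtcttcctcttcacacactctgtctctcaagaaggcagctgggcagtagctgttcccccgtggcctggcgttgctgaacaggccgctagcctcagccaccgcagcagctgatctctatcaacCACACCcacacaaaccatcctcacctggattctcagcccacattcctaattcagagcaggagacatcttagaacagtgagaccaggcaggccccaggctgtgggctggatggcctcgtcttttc
AP-1 matched in 1 of the 9 windows of 8 members (Cd160 has a pair of starts), that of Havcr2, against 7.81% of all 32851 windows in the table. NFAT matched in 5 of the 9 windows against 61.3% of all, and T-box in 3 of the 9, those of Havcr2 and of both Cd160 starts, against 19.1%. The printed Cd160 window has no NFAT match, but the other Cd160 start (chr3:96814472-96814771), which is not printed, has 1. The RUNX motif TGTGGT was found in 6 of the 9 windows, against 16.8% of all windows, the IRF motif (GAAA, 2 free bases, GAAA) in 0 of the 9 against 3.44%, and the TCF motif CTTTGAA in 1 of the 9 against 5.14%. A match is a description of these letters and not a binding site.

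**Figure D1:**
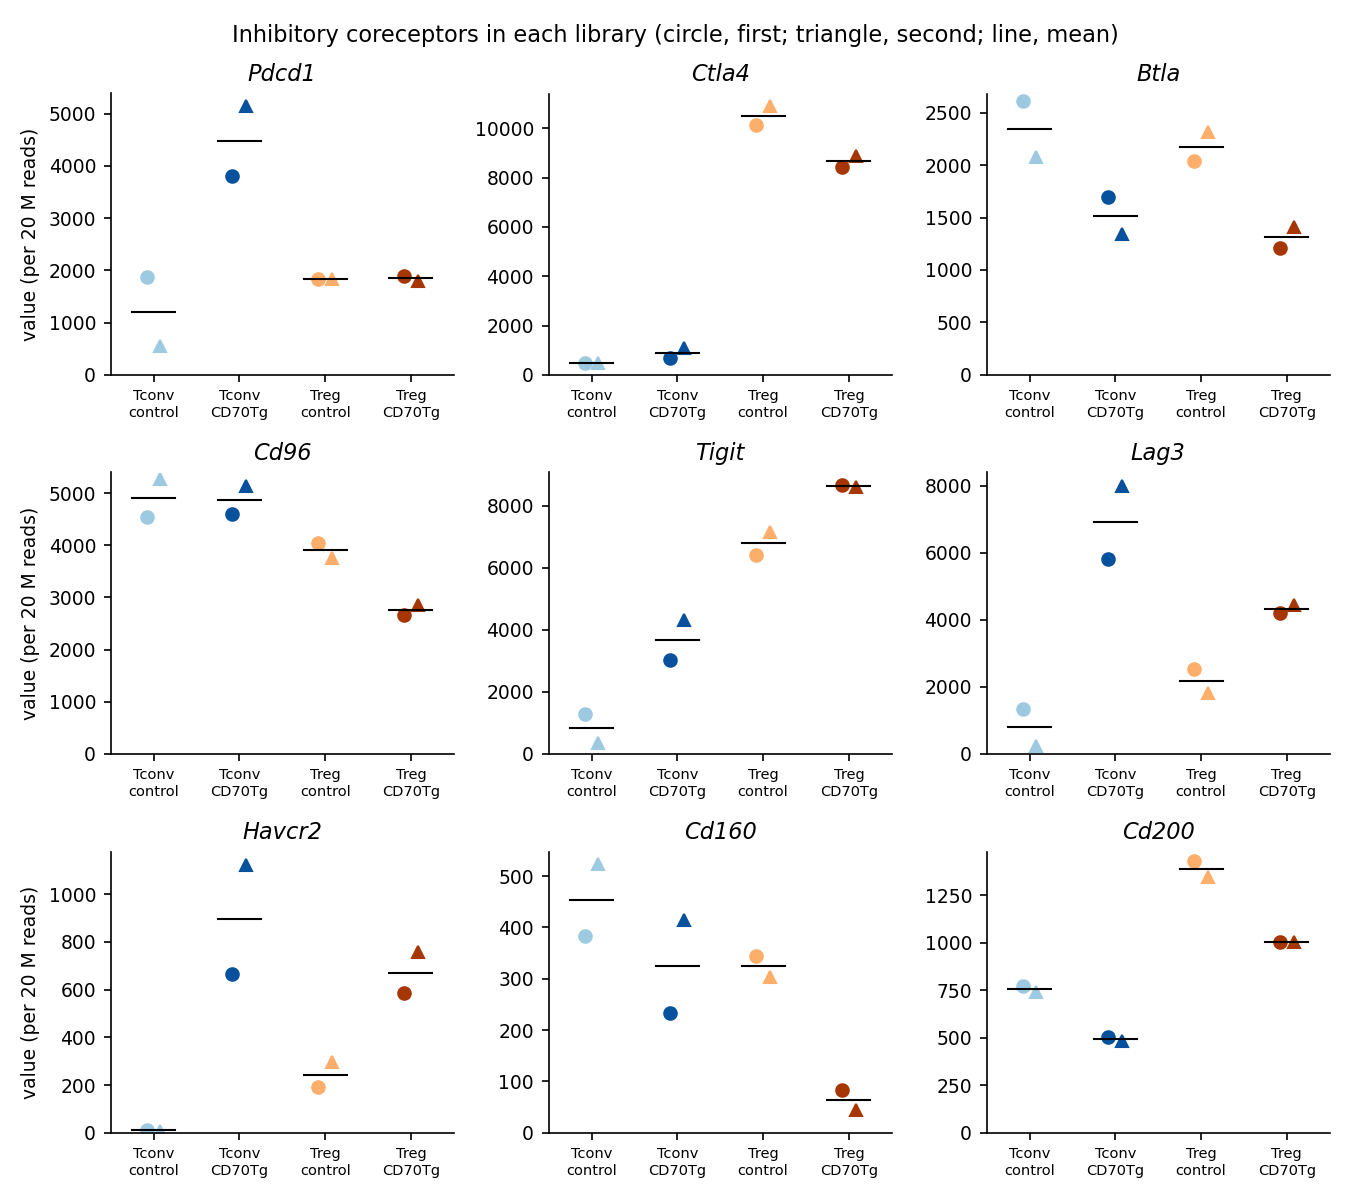
Deposited value per 20 M reads (y axis, from 0) of each of the 9 genes in each library of the 4 groups (x axis); circles are the first and triangles the second library of a group, and lines are group means. Havcr2, Lag3, Pdcd1 and Tigit were higher in both CD70Tg than in both control Tconv libraries, whereas Ctla4 was far higher in Tregs of either genotype and Cd160 was lowest in CD70Tg Tregs.

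In Tconvs, CD70Tg mice had more Havcr2, Lag3, Tigit and Pdcd1 transcript than controls. These 4 of the 9 genes were called up in limma and 0 down, where 4.07% of the tested genes were called up and 0.577% down. At an unadjusted p-value under 0.05, 2 members were lower, and limma-voom on the recovered reads called 0 down. Without the filter on low values, Havcr2 was still called, but Lag3 (adjusted p = 0.056), Tigit (adjusted p = 0.075) and Pdcd1 (adjusted p = 0.099) were not. Of the other 5 genes, 3 (Ctla4, Btla and Cd200) passed the adjusted p-value but not the fold threshold, and Cd160 and Cd96 passed neither, so that 7 of the 9 passed the adjusted p-value, as 8.81% of tested genes did. The 2 CD70Tg libraries lay above both controls for 5 of the 9 genes and below both for 2, against 23.7% and 21.4% of tested genes. The median log2 fold change of the 9 genes was 0.78, beside 0.01 over all tested genes.

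Havcr2 (ENSMUSG00000020399, chr11:46454935-46481255, plus strand, GRCm38) encodes TIM-3, a receptor of terminally differentiated and type 1 T cells. Its values were 13 and 9 in control Tconvs, which are 12 and 4 reads, and 666 and 1123 in CD70Tg Tconvs. Both transgenic libraries lay far above both controls, and the group means (11 ± 2.83 and 894.5 ± 323 (SD, n = 2)) differed 81.3-fold. The log2 fold change was 5.78 (SE 0.30, limma adjusted p = 1.7e-09), on the log2(value + 5) scale, which understates the change of a gene as low as this one in controls.

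Lag3 (ENSMUSG00000030124, chr6:124904361-124911705, minus strand), whose product LAG-3 is a CD4 homologue that binds MHC class II, was at 1331 and 239 in control Tconvs and at 5818 and 8013 in CD70Tg Tconvs. The groups did not overlap, but the control libraries differed 5.57-fold from each other. The log2 fold change was 3.58 (SE 0.46, adjusted p = 5.6e-05, limma). Tigit (ENSMUSG00000071552, chr16:43648867-43664146, minus strand) had values of 1274 and 360 in controls and 3037 and 4315 in CD70Tg Tconvs, and Pdcd1 (ENSMUSG00000026285, chr1:94038305-94052553, minus strand) had 1867 and 547 against 3812 and 5157. For both, the lower CD70Tg library was at least 2.04 times the higher control, with log2 fold changes of 2.41 (SE 0.35, adjusted p = 1.8e-04) for Tigit and 2.13 (SE 0.34, adjusted p = 4.7e-04) for Pdcd1 in limma.

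Ctla4 (ENSMUSG00000026011, chr1:60887000-60915832, plus strand) was at 493 and 496 in control Tconvs and at 663 and 1090 in CD70Tg Tconvs. The groups did not overlap, and the change was below the fold threshold (log2 fold change 0.78, SE 0.17, limma adjusted p = 0.0059). It was 1.13 without the first CD70Tg Tconv library and 0.42 without the second, in fits that keep 1 library of that group. Without the filter on low values the adjusted p was 0.161. Btla (ENSMUSG00000052013, chr16:45224315-45257670, plus strand), a receptor for the TNF receptor family member HVEM (Tnfrsf14), was at 2614 and 2080 in controls and at 1692 and 1345 in CD70Tg Tconvs. Cd200 (ENSMUSG00000022661, chr16:45382135-45409053, minus strand), the ligand of an inhibitory receptor of myeloid cells, was at 770 and 743 against 505 and 485. These 2 genes were lower in both transgenic libraries than in both controls, with log2 fold changes of -0.63 (adjusted p = 0.012) for Btla and -0.61 (adjusted p = 0.0091) for Cd200. Neither passed the adjusted p-value without the first control Tconv library, and Btla did not without the second CD70Tg Tconv library or the filter on low values (adjusted p up to 0.158). Cd96 (ENSMUSG00000022657, chr16:46035657-46120251, minus strand) overlapped between groups, with 4547 and 5267 in controls and 4607 and 5139 in CD70Tg Tconvs and a 95% confidence interval of the log2 fold change from -0.26 to 0.24. Cd160 (ENSMUSG00000038304, chr3:96798763-96829351, minus strand), another HVEM receptor, overlapped as well, with 383 and 524 against 234 and 415 and a wider interval of -1.18 to 0.15. Tigit, Btla, Cd200 and Cd96 lie on one stretch of chromosome 16 of 2471385 bp that holds 25 tested genes, and Btla and Cd200 are 124465 bp apart.

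**Figure D2:**
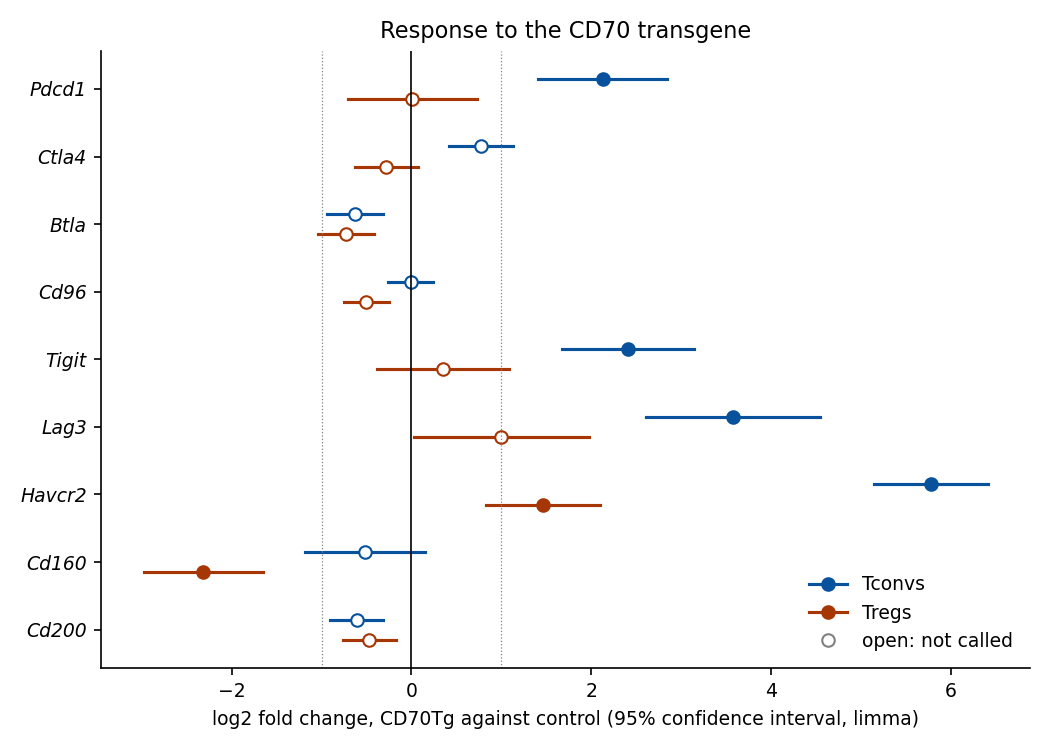
Log2 fold change of CD70Tg against control (x axis) with its 95% confidence interval from limma for each gene (y axis), in Tconvs (blue) and Tregs (brown); filled points were called and dotted lines mark the fold threshold. Havcr2, Lag3, Tigit and Pdcd1 were called up in Tconvs, and Havcr2 was called up and Cd160 down in Tregs.

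The first control Tconv library stood apart for 3 of the 4 called receptors, but not for Havcr2 (1.44-fold, a difference reached by 19.4% of tested genes). It was above the second control library 5.57-fold for Lag3, 3.54-fold for Tigit and 3.41-fold for Pdcd1, while Ctla4 (0.99-fold), Cd200 (1.04-fold) and Cd96 (0.86-fold) were close. Differences as large as these were found in that pair of libraries for 6, 24 and 29 of the 12816 tested genes, respectively, and the median gene differed by 0.18 on the log2 scale. Genes of follicular helper T cells, which express high levels of PD-1 and TIGIT, moved with them. Il21, their main cytokine, was at 493 and 74 in these libraries, Cxcr5, their homing receptor, at 2805 and 881, Tox2 at 821 and 306, and Bcl6, their defining transcription factor, at 1008 and 555. Of the 9 follicular helper genes tested, Sh2d1a, Il6ra, Cd40lg and Slamf6 differed by 1.22-fold or less. The part of such cells in the control values was not tested, and fewer cells of a type and less RNA per cell cannot be told apart in sorted bulk samples. Without this library, the log2 fold changes in Tconvs were 4.81 for Lag3, 3.31 for Tigit and 3.01 for Pdcd1, and without the second control they were 2.36, 1.5 and 1.25. Each of these fits keeps 1 control Tconv library, so that the spread between the controls no longer enters. Only the sizes of the changes are therefore given. CD8 genes moved with the rise of the receptors in Tconvs. The sum of Cd8a and Cd8b1 was 681 to 720 in control and 1563 to 1590 in CD70Tg Tconvs, with Cd8a at 17 and 28 against 508 and 608 and Cd8b1 at 703 and 653 against 1055 and 982. CD8+ cells had been removed with an antibody to CD8beta, and their part in the receptor values was not tested.

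**Figure D3:**
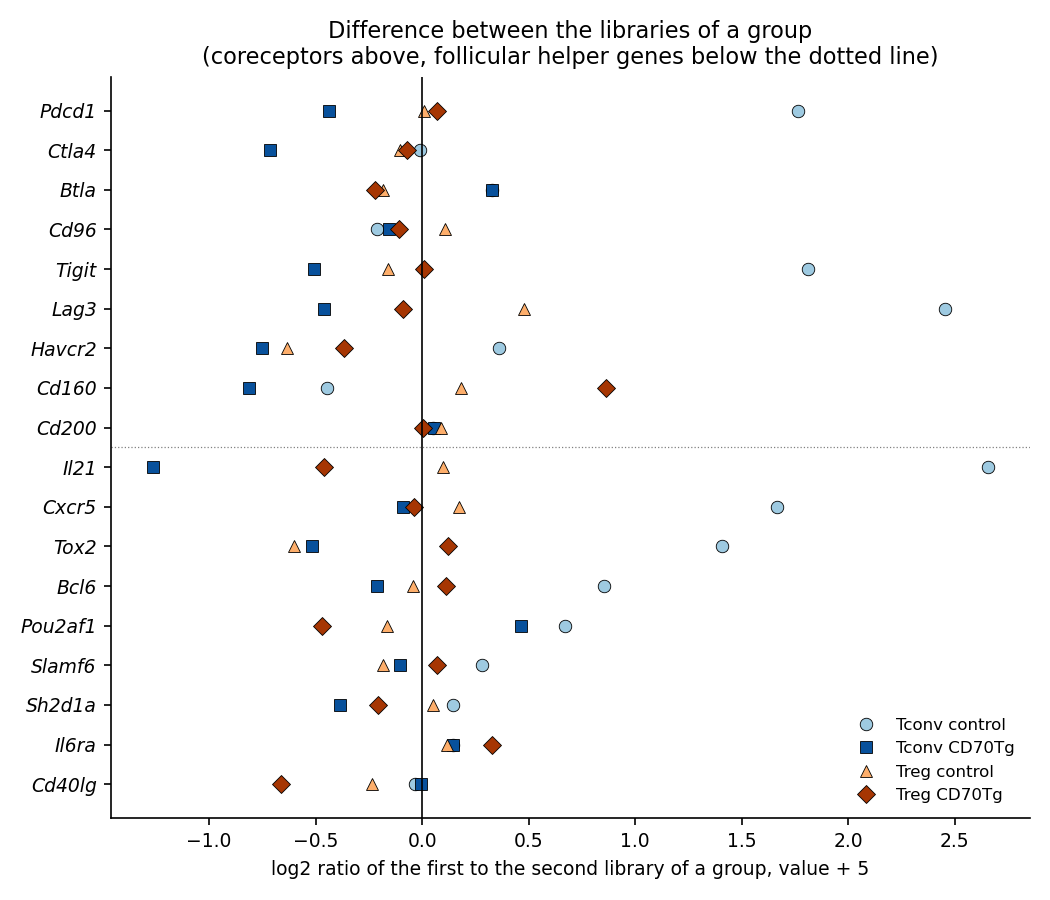
Log2 ratio of the first to the second library of each group (x axis, value + 5) for the 9 coreceptor genes above and the 9 tested follicular helper genes below the dotted line. In control Tconvs (light blue), Lag3, Tigit, Pdcd1, Il21, Cxcr5 and Tox2 lay to the right of 1, whereas in the other groups the 9 coreceptor genes stayed within 1 of 0.

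In Tregs, fewer members were called. Havcr2 was called up and Cd160 down, that is 1 of the 9 genes in each direction, where 2.53% of tested genes were called up and 1.08% down. Btla and Cd96 passed the adjusted p-value below the fold threshold, which makes 4 of the 9 against 7.4% of tested genes, and Lag3, Tigit, Pdcd1, Ctla4 and Cd200 did not pass it. This count depended on single libraries. Cd96 did not pass when any 1 Treg library was left out (adjusted p up to 0.199), and Btla did not pass without the second control or the first CD70Tg Treg library, and neither passed without the filter on low values or with limma-voom (adjusted p up to 0.0997). Under other alternatives Lag3, Tigit, Ctla4 and Cd200 each passed the adjusted p-value, so that the count could also be larger. The median of the 9 genes was -0.28, beside -0.05 for all tested genes.

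Havcr2 rose from 190 and 298 in control Tregs to 586 and 756 in CD70Tg Tregs, with no overlap and a 2.75-fold difference of the means (log2 fold change 1.46, SE 0.30, limma adjusted p = 0.0067). The call was lost when the first control (adjusted p = 0.12) or the second CD70Tg Treg library (adjusted p = 0.067) was left out, without the filter on low values (adjusted p = 0.075) and with limma-voom (adjusted p = 0.073). TIM-3 is also expressed by myeloid cells. The summed values of 9 dendritic cell and macrophage markers were 2639 to 2703 in control and 2778 to 3076 in CD70Tg Tregs. Of the 6 tested, 2 were called up (Itgam and Zbtb46) and 0 down, and Flt3 and Siglech were under 60 in all libraries. Csf1r (1500 and 1205 against 930 and 762) and Adgre1 (258 and 272 against 199 and 202) were lower in both CD70Tg Treg libraries. Lyz2 (641 and 872 against 1181 and 1077) was higher in both. Zbtb46, at 25 and 27 in control and 209 and 191 in CD70Tg Tregs, passed the filter only through the latter. The 6 granulocyte markers summed to 5 to 10 and 210 to 233 in these groups, where Ly6g, Mpo, Camp and Ngp were under 60 in all libraries and S100a9 (0 and 5 against 95 and 104) passed the filter only through CD70Tg Tregs. The haemoglobin genes Hbb-bs, Hbb-bt and Hba-a1, which mark erythroid cells, were called up in Tregs as well. Cells of these 3 kinds were targets of the bead depletion and lie outside the CD3+ CD4+ gate, and their part in the Treg result was not tested. In Tconvs, where Havcr2 rose most, the 9 dendritic cell and macrophage markers summed to 1522 to 1591 in control and 1064 to 1484 in CD70Tg libraries. Of the 6 tested, 1 was called up (Itgax) and 0 down. Itgam (178 and 166 against 93 and 80), Lyz2 (788 and 835 against 436 and 643) and Csf1r (449 and 417 against 309 and 380) were lower in both CD70Tg libraries. Zbtb46 and Xcr1, under 60 in these groups, were higher.

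Cd160 fell from 345 and 303 in control Tregs to 84 and 44 in CD70Tg Tregs, both of these being 8 reads. The groups were well separated, with a 5.06-fold lower mean (log2 fold change -2.31, SE 0.31, limma adjusted p = 2.3e-04). With limma-voom on the recovered reads the change was -2.44 and was not called (adjusted p = 0.067). Cd160 also marks natural killer cells and some CD8 T cells. The 6 natural killer cell markers summed to 36 to 64 in control and 0 to 11 in CD70Tg Tregs, and to 425 to 462 and 87 to 101 in Tconvs, of which Klrb1c carried most, while Ncr1, Klre1, Klra8, Klra4 and Klra7 were under 60 in all libraries. Cd8a and Cd8b1 together moved the other way, from 317 to 417 up to 631 to 660 in Tregs. Natural killer and CD8+ cells were targets of the bead depletion and lie outside the CD3+ CD4+ gate, and their part in the Cd160 values was not tested.

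Lag3 was at 2543 and 1826 in control Tregs and at 4190 and 4453 in CD70Tg Tregs. Both transgenic libraries were above both controls, but the gene was not called in the joint fit (log2 fold change 1.00, SE 0.46, adjusted p = 0.21), in which the spread of the control Tconv libraries enters the error. It was called in the 4 Treg libraries alone (adjusted p = 4.9e-05) and when the first or the second control Tconv library was left out, which removes that spread. The log2 fold change was at the threshold of 1 in each. Over all alternatives its log2 fold change ran from 0.76 to 1.24, and the adjusted p reached 0.537 without the second control Treg library. Tigit was at 6410 and 7163 in control and 8652 and 8607 in CD70Tg Tregs, also without overlap, with a log2 fold change of 0.35 (95% confidence interval -0.39 to 1.08). Pdcd1 overlapped between the groups, with 1835 and 1826 against 1892 and 1800 and an interval of -0.70 to 0.73. As for Lag3, the spread of the control Tconv libraries enters the intervals of Tigit and Pdcd1. Their width is therefore not the spread of the Treg libraries alone. Ctla4 was at 10142 and 10898 in control and 8453 and 8890 in CD70Tg Tregs (log2 fold change -0.28, adjusted p = 0.36).

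The other 3 genes were lower in both CD70Tg Treg libraries than in both controls. Btla was at 2038 and 2317 against 1213 and 1414 (log2 fold change -0.73, adjusted p = 0.0068), and Cd96 at 4052 and 3757 against 2654 and 2860 (log2 fold change -0.50, adjusted p = 0.015). Cd200 was at 1432 and 1345 against 1004 and 1001 (log2 fold change -0.47, adjusted p = 0.051). Groups without overlap were common in Tregs, where 31.2% of tested genes were lower and 22.5% higher in both CD70Tg libraries. For the 9 members the counts were 5 lower and 3 higher.

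The difference between the responses of the subsets was tested directly, as Tregs minus Tconvs. It was called for 3 of the 9 genes, all with the lower response in Tregs, where 0.733% of tested genes were called in that direction. The difference was -4.31 for Havcr2 (SE 0.42, limma adjusted p = 5.7e-05), -2.11 for Pdcd1 (SE 0.48, adjusted p = 0.042) and -1.05 for Ctla4 (SE 0.24, adjusted p = 0.041). Of these, Havcr2 was the only one called under each of the leave-one-out fits, and it lost the call without the filter on low values (adjusted p = 0.104). Pdcd1 and Ctla4 both lost the call when any single Treg library or the second CD70Tg Tconv library was left out (adjusted p up to 0.199 and 0.186); Ctla4 lost it also without the second control Tconv library (adjusted p = 0.054). Lag3 (-2.58, adjusted p = 0.078), Tigit (-2.06, adjusted p = 0.060) and Cd160 (-1.80, adjusted p = 0.074) did not pass the threshold. For Tigit this depended on the processing (adjusted p = 0.040 with a pseudocount of 20 and 0.045 for genes above 10 in every library). Without the first control Tconv library the differences were -3.81 for Lag3 and -2.96 for Tigit, and without the second -1.35 and -1.15. Without the first CD70Tg Tconv library they were -2.31 for Tigit and -2.2 for Cd160. Without the first CD70Tg Treg library the difference was -2.23 for Cd160. Calls were gained in these fits, but every leave-one-out fit keeps 1 library in a group, whose spread then no longer enters. The differences were -0.10 for Btla (95% confidence interval -0.55 to 0.34), 0.14 for Cd200 (-0.28 to 0.56) and -0.49 for Cd96 (-0.85 to -0.14, adjusted p = 0.24).

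The subsets were also compared within each genotype. In control mice, Ctla4, Havcr2, Tigit and Lag3 were called higher in Tregs, with log2 fold changes of 4.40, 3.94, 3.31 and 1.92 (limma adjusted p = 1.3e-11, 3.4e-08, 1.3e-06 and 0.0029), that is 4 of the 9 genes where 14.7% of tested genes were called up, and 0 were called lower in limma where 4.43% were (1 at an unadjusted p-value under 0.05, and 0 with limma-voom). The Lag3 call was lost without the second control Tconv library, where the log2 fold change was 0.69, and without the filter on low values (adjusted p = 0.090). Pdcd1 was at 0.85 (adjusted p = 0.049), and at 1.73 and -0.03 without the first and the second control Tconv library, respectively. In CD70Tg mice, Ctla4 (3.34), Tigit (1.25) and Cd200 (1.01) were called higher in Tregs and Cd160 (-2.26) and Pdcd1 (-1.26) lower, that is 3 and 2 of the 9 genes where 12.3% and 4.94% of tested genes were called. Without the filter on low values, Tigit and Pdcd1 were not called (adjusted p = 0.13 and 0.115). The Tigit call was lost without the first CD70Tg Tconv library, and the Pdcd1 and Cd200 calls without the second (log2 fold change 1.00, -1.05 and 0.98). These comparisons share their libraries with those of the transgene.

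Set against the Treg mean of the same genotype, the Tconv level of Havcr2 and Lag3 was below it in both control libraries and close to or above it in both CD70Tg libraries, and that of Pdcd1 was already at it in 1 of the 2 control libraries. Havcr2 was 5.33 and 3.69% of the Treg mean in control Tconvs and 99.2 and 167% in CD70Tg Tconvs, Lag3 was 60.9 and 10.9% and then 135 and 185%, and Pdcd1 was 102 and 29.9% and then 206 and 279%. Tigit stayed below, with 18.8 and 5.30% and then 35.2 and 50%. Ctla4 was 4.69 and 4.72% in control and 7.65 and 12.6% in CD70Tg Tconvs, where Foxp3 was 5.21 and 7.51% and then 5.51 and 6.06%. The share of Foxp3+ cells behind these Ctla4 values was not tested.

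**Figure D4:**
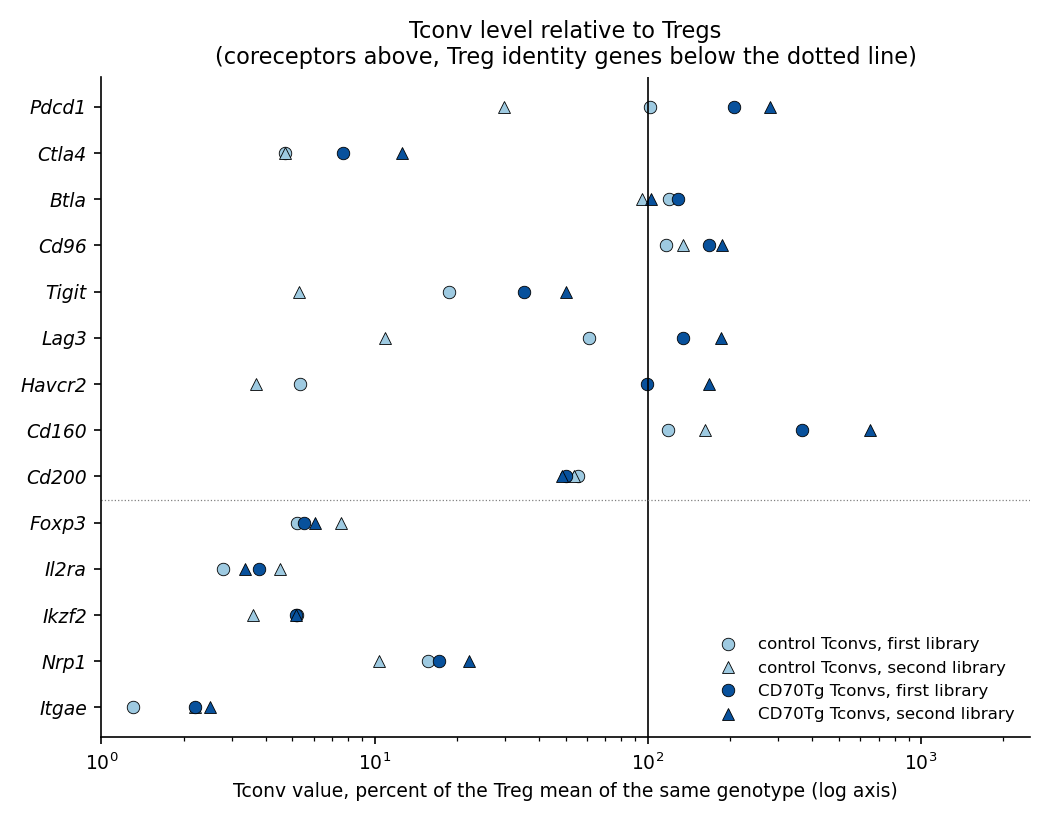
Value of each Tconv library as a percentage of the Treg mean of the same genotype (x axis, log scale; vertical line at 100%) for the coreceptors above and 5 Treg identity genes below the dotted line (light blue, control; dark blue, CD70Tg). Havcr2, Lag3 and Pdcd1 of CD70Tg Tconvs lay at 99.2% or more, whereas Ctla4 and the identity genes stayed at 22.1% or less.

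Levels were compared between genes only per kb of exon. In control Tconvs, Cd96 led (2247 per kb), above Tigit (889) and Btla (691), and Havcr2 was last (4.04), and the neighbours from Tigit down to Cd200 overlapped between libraries. In CD70Tg Tconvs, Tigit (4000) and Lag3 (3279) led with overlapping libraries, then Pdcd1 (2324) and Cd96 (2231), which overlapped too. In Tregs, Tigit (7385 in control and 9390 in CD70Tg) was above Ctla4 (4515 and 3722) in both libraries of both genotypes. The next gene was Cd96 (1788) in control and Lag3 (2049) in CD70Tg Tregs, in each case above the one that followed in both libraries. Cd160 was last in CD70Tg Tregs (24.2 per kb), and Havcr2 in control Tregs (89.7).

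**Figure D5:**
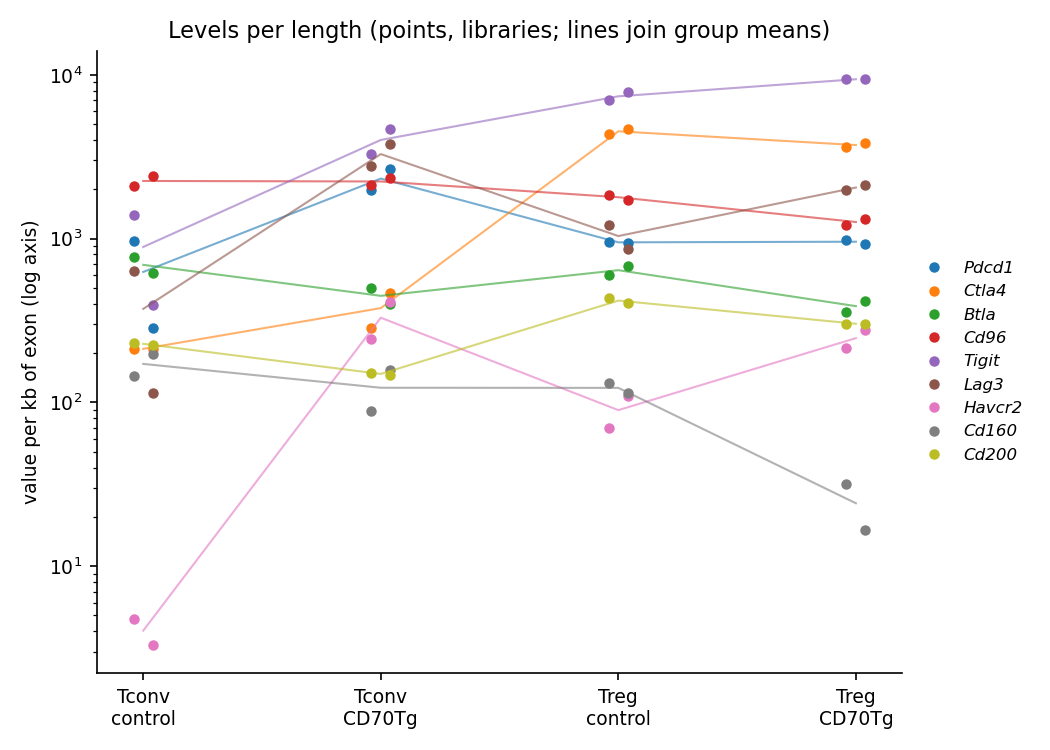
Value per kb of exon (y axis, log scale) of the 9 genes in the 4 groups (x axis); points are libraries and lines join group means to guide the eye. Havcr2 spanned the widest range, from 4.04 in control Tconvs to 329 in CD70Tg Tconvs, and Tigit led in the 3 groups other than control Tconvs.

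The genes whose profile over the 8 libraries was most like that of each member were listed as a description. For Havcr2 these were S100a4 (Pearson r = 0.99), a calcium-binding protein of effector and memory cells, and Gzmb (r = 0.98), a cytotoxic granule protease, which was at 72 and 51 in control and 1323 and 2941 in CD70Tg Tconvs. They were Phlpp2 and Etv6 for Lag3 (both r = 0.98), Znfx1 (r = 0.97) and Cdca2 (r = 0.94) for Pdcd1, Tmem2 and Lsr for Tigit (both r = 0.99), and Itih5 and Swap70 for Ctla4 (both r = 1.00). For the members that did not rise they were Rpf2 and Kif2a for Cd160, Mettl8 and Mccc1 for Btla, Kcnq5 and Sp6 for Cd200, and Polr1e and Shoc2 for Cd96 (r = 0.97 to 0.99). With 8 libraries in 4 groups and 12816 genes to choose from, high coefficients are to be had for most profiles.

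Ligands and counter-receptors of the members were also measured in these T cells. Of the 14 tested genes of this list, 3 were called up in each subset, where 4.07% of all tested genes were in Tconvs and 2.53% in Tregs, and the others were not called. In Tconvs these were Lgals3, encoding galectin-3, a LAG-3 ligand (201 and 189 against 1147 and 2625, log2 fold change 3.12), Cd80, a ligand of CTLA-4 (20 and 0 against 49 and 95, 2.72), and Cd274, encoding PD-L1 (767 and 729 against 1807 and 2176, 1.40). The second control value of Cd80 was under the floor of its library, so the size of its change depends in part on the pseudocount. In Tregs they were H2-Aa (238 and 552 against 1254 and 1485, log2 fold change 1.90) and H2-Ab1 (287 and 548 against 1432 and 1528, 1.89), MHC class II genes that are the hallmark of antigen-presenting cells, and Lgals3 (301 and 320 against 1150 and 1104, 1.84). The summed dendritic cell and macrophage markers of these groups are given above with Havcr2, and their part in the class II values was not tested. Cells with surface MHC class II or CD11c had been targets of the bead depletion. Of 5 activating receptors that share ligands with the members (Cd28, Icos, Cd226, Crtam, Cd4), 1 was called up in Tregs, against 2.53% of all tested genes. In Tconvs 0 were called. The called gene was Crtam, from 25 and 9 to 74 and 71 in Tregs, with the lower control value under the floor of its library.

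Among 16 other inhibitory receptors of T cells, 5 were called up in Tconvs (against 4.07% of all tested genes) and 2 in Tregs (against 2.53%), and the others were not called. In Tconvs, Lilrb4a, an immunoglobulin-like receptor (25 and 13 against 294 and 803, log2 fold change 4.40), Klrg1, a lectin receptor of effector cells (38 and 76 against 479 and 1027, 3.58), and Entpd1, the ectonucleotidase CD39 (133 and 124 against 1046 and 1573, 3.27), changed most, and Cd38 and Cd101 were called as well. In Tregs, Lilrb4a (204 and 193 against 1599 and 1599, 2.98) and Klrg1 (1218 and 1585 against 3783 and 4073, 1.5) were called. As for Havcr2, the response was called smaller in Tregs for 3 of the 16 genes, against 0.733% of all tested genes. These were Cd38 (difference -2.62, limma adjusted p = 4.1e-04), Entpd1 (-2.61, adjusted p = 3.5e-05) and Klrg1 (-2.09, adjusted p = 0.021). The 22 tested phosphatases and adaptors that act at the receptor tails included Ptpn6 and Ptpn11, which encode SHP-1 and SHP-2. Of the 22, 1 was called up in Tconvs, close to the 4.07% of all tested genes, and 0 were called in Tregs. It was Inppl1, encoding the phosphatase SHIP2 (271 and 208 against 369 and 629), with a log2 fold change of 1.01, at the threshold of 1.

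Of 22 transcription factors associated with exhaustion, 4 were called in Tconvs, each up, where 4.07% of all tested genes were called up, and 5 up and 2 down in Tregs, where 2.53% were called up and 1.08% down. In Tconvs, Nr4a2, an orphan nuclear receptor induced by antigen receptor signals, went from 22 and 17 to 447 and 428 (log2 fold change 4.18), Bhlhe40, a factor required for type 1 cytokines, from 366 and 216 to 3127 and 5936 (3.91), and Eomes, a T-box factor, from 352 and 258 to 2807 and 3386 (3.33). Prdm1 was called too. In Tregs, Eomes went from 93 and 75 to 1547 and 1458 (4.09), Nr4a2 from 112 and 71 to 502 and 555 (2.5) and Bhlhe40 from 549 and 583 to 2195 and 2561 (2.06), with Tbx21 and Id2 called up and Tox2 and Id3 down. Tox, the factor most closely tied to exhaustion, was at 2784 and 2080 in control and 3997 and 4223 in CD70Tg Tconvs (log2 fold change 0.77, adjusted p = 0.0012, under the fold threshold) and at 3407 and 3810 against 2905 and 3198 in Tregs (-0.24, adjusted p = 0.33), and the difference was called (-1.01, adjusted p = 0.014). Bhlhe40, Prdm1 and Irf4 were called in the same direction, which makes 4 of the 22 against 0.733% of all tested genes. Of the 9 tested follicular helper genes, 1 was called in Tconvs, Pou2af1, encoding a coactivator of octamer-binding factors, and it was down, as were 0.577% of all tested genes. In Tregs, 4 of the 9 were called down (Cd40lg, Pou2af1, Tox2, Il6ra), where 1.08% of all tested genes were, and the other 5 were not called.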

How the data were processed

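Per the submitters' processing notes and the methods, reads were trimmed (Trimmomatic 0.36), aligned to mm10 (STAR 2.5.3) and counted per gene (HTSeq 0.9.1). The authors deposited score values, that is counts rescaled to 20 M reads in each column and then taken up to the next whole number. Column totals were 19963628 to 20164600. Columns headed KO were taken as the CD27+/- controls, which the sample descriptions call WT, since the labels hold only 1 other genotype, CD70Tg, and its columns are headed TG. The columns name the group but not the replicate. The 4131 clone-named rows were dropped, as the spacing of their low values was not that of the library they stand under.

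Genes reaching 60 in 2 or more libraries were tested on log2(value + 5) with limma 3.58.1 in R 4.3.3, with 1 coefficient per group and a trend in the prior variance (prior degrees of freedom 12.3), and Benjamini-Hochberg adjustment within each contrast. The values were scaled and rounded, so that no count model was used as the main test. All adjusted p-values are from limma. On simulated data with an assumed spread, the share of false calls between genotypes in Tregs was above the nominal rate, so that calls there are less certain.

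Loci, exon lengths and overlaps came from GENCODE M21 (GRCm38). Exons of Cd160 overlapped another gene (Pdzk1) over 2.57% of their length and those of the other members over none.

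Genes named were every member, up to 3 called genes with the largest change per list and contrast, and the 2 tested genes (clone-like names excepted) with the highest Pearson r to each member. Other called list members, the markers and the follicular helper, phosphatase and Tox values that describe a control library or a list were named after their values were seen. The members and lists were chosen with earlier results of these data known. Alternatives were other pseudocounts, filters and scaling factors, the libraries compared alone, other thresholds, clone-named rows kept, limma-voom on recovered reads, and each library left out. Some marker results are not reported here.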

Additional observations from a re-analysis of the deposited data

Results flagged for a closer look

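The response to the CD70 transgene differed between the subsets for 3 coreceptor genes by the test of the difference itself (Tregs minus Tconvs, limma, log2 scale). For Havcr2 the difference was -4.31 (adjusted p = 5.7e-05), with both CD70Tg libraries above both controls in each subset and a larger rise in Tconvs. For Pdcd1 it was -2.11 (adjusted p = 0.042), with the CD70Tg libraries above both controls in Tconvs and overlapping them in Tregs. For Ctla4 it was -1.05 (adjusted p = 0.041), with the CD70Tg libraries above both controls in Tconvs and below both in Tregs. These calls were not stable. The Pdcd1 and Ctla4 differences each lost the call in 11 of 17 alternatives, among them a pseudocount of 1, both other scalings and limma-voom, with adjusted p-values up to 0.418 for Pdcd1 and 0.37 for Ctla4, and the Havcr2 difference lost it in 1 of 16, without the filter on low values (0.104).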

How the results depend on the processing

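Without a filter on low values, 1 member was called up in Tconvs, 0 up in Tregs, 0 in the difference and 1 lower in Tregs than Tconvs of CD70Tg mice. With a value above 10 required in every library, 0 were called up in Tregs, since Havcr2 is then not tested. With limma-voom on recovered reads, 0 were called up and 0 down in Tregs (Havcr2 adjusted p = 0.073, Cd160 0.067) and 1 in the difference. The difference was called for 1 member with a pseudocount of 1, TMM factors, median-of-ratios factors or an adjusted p-value under 0.01. The 4 libraries of a subset alone gave 2 called up in Tregs. With no fold threshold, 2 were down in Tconvs, 3 down in Tregs and 1 lower in control Tregs than Tconvs. Leaving out each library gave 4 to 5 called up in Tconvs, 0 to 2 up and 1 down in Tregs, 1 to 5 in the difference, 3 to 5 higher in control Tregs, and 2 to 3 higher and 1 to 2 lower in CD70Tg Tregs. The cause of these changes was not tested except where given.

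Under the alternatives run, the sign turned for none of the called members. With voom, Cd96 in Tconvs was at 0.010, and leaving out libraries gave -0.114 to 0.098 for it, -0.024 to 0.048 for Pdcd1 in Tregs, -0.267 to 0.063 for Btla in the difference, and, for control Tregs against Tconvs, -0.266 to 0.063 for Btla and -0.028 to 1.73 for Pdcd1. No scaling moved the median of all genes by more than 0.1.

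Over all genes, 522 up and 74 down were called in Tconvs (259 and 24 without the filter, 874 and 255 without the fold threshold, 152 down with voom, 40 down at 0.01), and 324 and 138 in Tregs (150 and 52, 505 and 443, 139 and 35, and at 0.01 186 and 65). In the difference 19 were up and 94 down (0 and 0 without the filter, 8 and 43 with voom, 5 and 43 at 0.01, 29 up with a pseudocount of 20). Tregs against Tconvs gave 1887 and 568 in control and 1577 and 633 in CD70Tg mice, and 3518 and 2357, and 2894 and 2573, without the fold threshold. Leaving out single libraries gave 255 to 667 up and 42 to 101 down in Tconvs, 159 to 325 up and 40 to 184 down in Tregs, and 7 to 27 up and 46 to 185 down in the difference. No paired analysis was possible because the columns of the table carry no replicate numbers. With 8 reads of Cd160 in each CD70Tg Treg library, depth limits the low members in Tregs.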
